A study of Mus musculus with 8 samples.

Results

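Mouse chromosome 7 carries Fah, the gene that is disrupted in the mice of this study. It was followed here in DNA of 8 liver tumors through every non-control array probe placed on it in the mouse build mm9, except the 184 placed from 7:90685593 to 7:92812873, the stretch around Fah. This left 9649 of the 9833 probes on the chromosome, out of 170305 different probes on each array. Each tumor came from a different male FAH-/- mouse, and its DNA was set against 1 pool that combined liver DNA of 6 FAH+/+ littermates, male as well. The FAH-/- mice had lived on NTBC (nitisinone) at 7.5 mg/L of drinking water, and then on 2.5% of that dose for 6 to 12 months. The labels give neither the strain nor the share of tumor cells in a tumor, and all tumors carry the same genotype and treatment. No normal liver of a FAH-/- mouse was analysed here, so a difference between these mice and the littermates of the pool that was already present in the germ line cannot be told apart from a change in the tumor.

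The product of Fah, fumarylacetoacetate hydrolase, carries out the final step in the breakdown of tyrosine, and NTBC blocks an earlier enzyme of the same pathway. Mouse autosomes have their centromere at one end, so a chromosome has a single long arm with a proximal end next to the centromere and a distal end at the telomere. In comparative genomic hybridization, tumor DNA and control DNA in different dyes compete for the same probes, and the ratio of the dyes follows the ratio of the DNA copies averaged over all cells of the sample. Chromosome 7 holds several imprinted clusters, in which a gene is read from the maternal or the paternal copy only.

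A RefSeq table of the build GRCm38.p6 places 2030 protein-coding genes on chromosome 7. All 63 genes of the lists used here lie on it, since the lists were made up of genes of this chromosome. The 19 imprinted genes include Igf2, a fetal growth factor, Cdkn1c, an inhibitor of cyclin-dependent kinases, and H19, a noncoding RNA next to Igf2. The 17 liver genes include Cyp2e1, an enzyme that oxidizes ethanol, Apoe, a lipoprotein component, Hamp, which encodes the iron hormone hepcidin, and Fgf15, an intestinal hormone that acts on bile acid synthesis in the liver. Among the 19 growth and cancer genes are Ccnd1 and Ccne1, cyclins of the G1 phase, Hras, a signalling GTPase, and Igf1r, a receptor for insulin-like growth factors. The 8 DNA repair genes include Ercc1 and Ercc2, which act in nucleotide excision repair, and Blm, a helicase of homologous recombination. As the gene positions belong to another build than the probes, these genes are named as carried by the chromosome, and no segment below is assigned to a gene.

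The probes covered 149 Mb, from 7:3131659 to 7:152520747 of mm9, at a median spacing of 10.4 kb, within the range of all autosomes. The midpoint between the first and last probe, at 7:77826203, put 3971 probes on the proximal side and 5678 on the distal side. The difference in number goes with long distances between the probes used: 7 of them measured 500 kb or more, and 6 of these were proximal. The remaining, distal distance of 2.13 Mb (7:90685593-92812873), between the nearest probes used, spans the stretch around Fah. Its 184 probes were left out here, so it is not free of probes on the array. The longest probe-free distance spanned 7.42 Mb (7:39104161-46519383), followed by distances of 3.46 Mb (7:7252125-10709960) and 3.45 Mb (7:20636480-24083537). The arrays measured this chromosome with 97.2% to 99.7% of its spots well above background in both channels. In the tumor channel its spots had a median signal 4.17 to 6.47 times that of the background, and in the pool channel 4.34 to 11.5 times.

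Log2 ratios of tumor over pool are given on a scale whose 0 is the commonest level of the autosomes in that tumor. All arrays also shared a pattern of ratios from probe to probe. Values are therefore given both with that pattern kept and with it subtracted, and the subtraction removes any short difference common to most tumors. The noise between neighbouring probes was 0.386 to 0.653 with the pattern kept and 0.118 to 0.212 with it subtracted. On either scale a loss of 1 of 2 copies in all cells would give -1, and 1 extra copy in all cells would give 0.58.

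The first question was whether chromosome 7 as a whole was gained or lost. It was lost as a whole in 1 of the 8 tumors, tumor 3, and gained as a whole in none. With the pattern kept, its mean log2 ratio was -0.30 in tumor 3 and -0.090 in tumor 7, the lowest values. In the other tumors it lay close to 0, at 0.00033 in tumor 1, 0.00017 in tumor 2, 0.0077 in tumor 4, -0.0082 in tumor 5, 0.0081 in tumor 6 and 0.0037 in tumor 8. Tumors 3 and 7 thus stood below the other 6 tumors, which lay together near 0.

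Over the 8 tumors the mean was -0.047 ± 0.11 (SD, n = 8), and an exact permutation test that flips the signs of tumors (two-sided) gave p = 0.406 (adjusted p = 0.677 over 20 chromosomes, below 0 in 3 of 8 tumors). Set against the median of the other autosomes of the same tumor, which does not depend on where 0 lies, chromosome 7 differed by -0.044 ± 0.11 (SD, n = 8), with an exact permutation p of 0.320 and an adjusted p of 0.580. Of the 20 chromosomes, 0% were higher and 0% lower at an adjusted p under 0.05 in either comparison. With the pattern subtracted, 7 of 8 tumors were below 0 and their mean level was -0.055 ± 0.10 (SD, n = 8, exact permutation p = 0.0312, adjusted p = 0.0893). These means rest on tumor 3: without it the mean was -0.011 with the pattern kept, and the difference from the other autosomes was -0.0080. The arrays lay on 2 slides of 4 tumors each, and the mean was -0.072 on slide 1, which held tumor 3, and -0.022 on slide 2. The sign of the mean and its call also depend on the scale: the array median as 0 gave 0.085 (exact permutation test, adjusted p = 0.170), the peak of single probes as 0 gave 0.33 (adjusted p = 0.0112), and the median of probes in place of the mean gave -0.15 (adjusted p = 0.0156). Another 0 shifts all chromosomes of an array alike. With the peak of single probes the median of bin means was 0.335 on chromosome 7 and 0.327 over all bins.

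**Figure D1:**
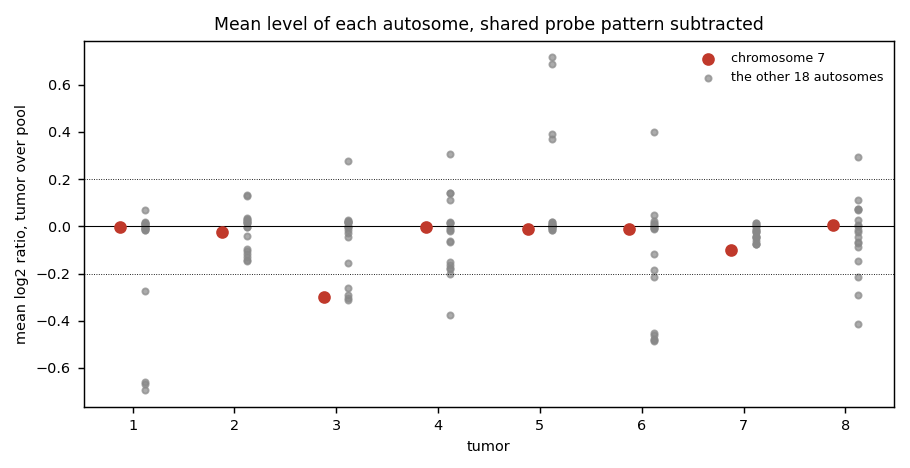
Mean log2 ratio of tumor over pool for chromosome 7 (red) and each of the other 18 autosomes (grey) in tumors 1 to 8, with the shared probe pattern subtracted. Dotted lines mark the call threshold of 0.2 in either direction. Chromosome 7 lies past it in tumor 3, at -0.30, and in no other tumor.

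In tumor 3 the loss ran the length of the chromosome. Segments called as lost, those with a mean of -0.2 or below over at least 5 probes, made up 99.6% of the probed length, and 136 of 137 bins of 1 Mb were at -0.2 or below with the pattern subtracted. Of its 27 segments 24 were lost, and those of at least 3 Mb had means from -0.33 to -0.25. The bins ranged from -0.41 to -0.15, and windows of 10 Mb from -0.34 to -0.26. The proximal side averaged -0.29 and the distal side -0.31, so the 2 sides differed by 0.022, close to the median size of that difference over the other autosomes of tumor 3 (0.020).

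Tumor 3 lost chromosome 7 together with chromosomes 3 (mean -0.31), 1 (-0.31), 6 (-0.29) and 18 (-0.26), so the 5 losses lay between -0.31 and -0.26. The other autosomes without a whole change, 13 in number, ranged from -0.16 to 0.027 with a median of 0.0032, and chromosome 15 was gained at 0.27. Of all 160 pairs of a chromosome and a tumor, 10.6% were whole losses and 5% whole gains with the pattern subtracted (11.2% and 5% with it kept), so 1 loss in 8 tumors is near that background. Since the loss lay at -0.30, a call threshold of 0.3 no longer called it whole. Its difference from the other autosomes of tumor 3 was -0.29 with the pattern kept and -0.30 with it subtracted. All of the listed growth, liver and repair genes are carried by the chromosome lost there, and which parental copy was lost, on which imprinted genes such as Igf2 and Cdkn1c depend, was not measured.

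**Figure D2:**
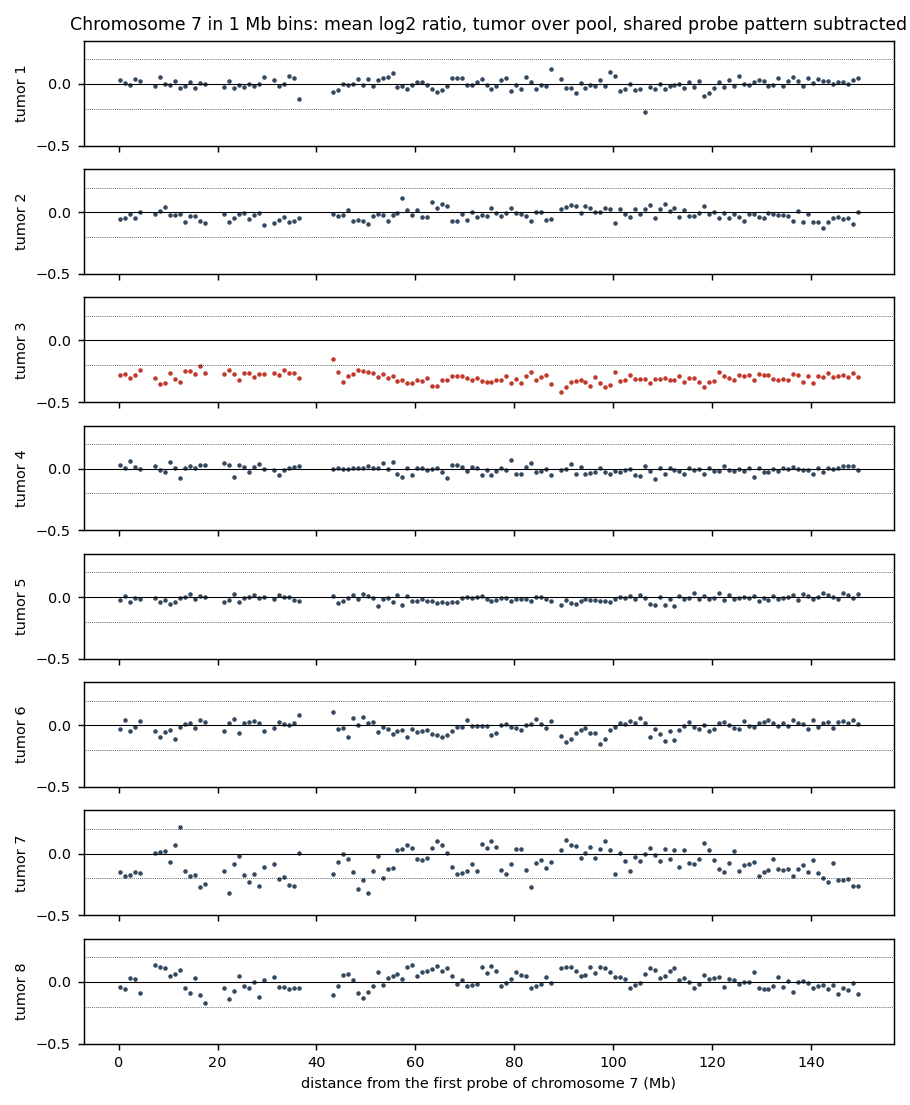
Mean log2 ratio of tumor over pool in 1 Mb bins along chromosome 7 for each tumor, against the distance from its first probe in Mb, with the shared probe pattern subtracted and dotted lines at 0.2 in either direction. Tumor 3 (red) lies below 0 in all 137 bins, tumor 7 wanders below 0 in several stretches, and the gap near 40 Mb is the longest probe-free distance.

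Tumor 7 was the second lowest and differed in kind. Its mean was -0.099 with the pattern subtracted, the lowest among the 19 autosomes of that tumor, whose other members had a median of -0.024. No whole change was called, but 18.3% of the length was lost in 25 segments and 0.760% gained in 6. Over all chromosomes and tumors, whole changes included, 14.7% of the probed length was lost and 4.28% gained. On the other chromosomes of tumor 7 the lost share ranged from 0.151% on X to 16.7% on chromosome 4, so that of chromosome 7 was the highest. The 10 Mb windows of chromosome 7 in tumor 7 ran from -0.20 at 30 to 40 Mb from the first probe, through 0.034 at 90 to 100 Mb, to -0.19 at the distal end. The proximal end itself, at 0 to 10 Mb, was at -0.12. The lowest windows were thus those at 20 to 40 Mb and the last one of the distal side.

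The unevenness of tumor 7 was not confined to chromosome 7. Chromosome 7 was cut into 80 segments there, against a median of 50 for its other autosomes, and the SD of its 1 Mb bins was 0.106, within the range of 0.0799 to 0.133 of the other autosomes. Tumor 7 had the highest noise of all arrays with the pattern subtracted, 0.212. On the other scale the order was another, as tumors 7 and 8 had a noise of 0.388 and 0.386, below the 0.619 to 0.653 of tumors 1 to 6. Tumors 7 and 8 also have title numbers of another series than the other 6 tumors, and the labels do not say what these numbers mean. With the pattern subtracted, the profile of tumor 7 over the 137 bins correlated with that of tumor 8 (Pearson r = 0.816) and tumor 2 (r = 0.676) and inversely with that of tumor 3 (r = -0.767). With the pattern kept, r was 0.881, 0.758 and 0.359 in that order, so the inverse relation was seen only after the subtraction. Those arrays share the control pool and the subtracted pattern, and bins are not independent, so these are descriptions. In tumor 8 the same windows ran from -0.056 to 0.094 and no segment of 3 Mb or more was called. The part of noise in the shallow losses of tumor 7 was not tested.

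Partial losses, called segments of at least 3 Mb on a chromosome without a whole change, were found in 2 tumors. Tumor 7 had 1 at 7:18905351-24428792 with a mean of -0.25 ± 0.023 (SE over 175 probes) and 1 at 7:35126820-38749879 with -0.25 ± 0.017 (SE over 233 probes). The first of these spans the probe-free distance of 3.45 Mb, so most of its length holds no probe. In tumor 5 the segment 7:20619362-24127829 had a mean of -0.26, but it held 5 probes, as it spans the probe-free distance of 3.45 Mb. The start of that segment, between 7:20610770 and 7:20619362, was also the single step found, a change of -0.27 between neighbouring segments of at least 3 Mb each. No partial gain was called. A partial loss was present in 15% of all pairs of a chromosome and a tumor, a partial gain in 3.12% and a step in 6.88%, and chromosome 7 had 2, 0 and 1 such tumors of 8. Without tumor 7, with the pattern recomputed, there were 0 partial losses, and leaving out any single tumor gave 0 or 2 steps.

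With the pattern kept, the partial losses numbered 5 and lay elsewhere in part, beside 0 partial gains. On that scale 20% of all pairs had a partial loss, 8.12% a partial gain and 25% a step, and 14.8% of all probed length was lost and 4.72% gained. Tumor 7 then had 3, at 7:17217585-26256414 (-0.31), 7:26990684-46843232 (-0.20) and 7:147986908-152520747 (-0.22). Tumor 8 had 1 at 7:19104448-25463291 (-0.23) and tumor 1 had 1 at 7:17422466-20442291 (-0.25), which also gave 2 of the 4 steps on that scale. The low segments of tumors 7 and 8 thus ran to 7:26256414 and 7:25463291, whereas that of tumor 1 ended at 7:20442291 and was followed by a level of -0.016. Those of tumors 7 and 8 span the probe-free distance of 3.45 Mb, and that of tumor 7 at 7:26990684-46843232 spans the one of 7.42 Mb. Their lengths thus include stretches without probes. On this scale the 10 Mb window that begins at 7:13131659 was below 0 in all 8 tumors, from -0.37 in tumor 3 to -0.083 in tumor 4. That was not particular to it, as the windows that begin at 7:23131659, 7:33131659, 7:43131659 and 7:83131659 were below 0 in all 8 tumors too. With the pattern subtracted, the window that begins at 7:13131659 was between -0.051 and 0.020 in all tumors but 3 and 7, at -0.26 and -0.15.

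The proximal side was set against the distal side of the same array. With the pattern kept it was lower in all 8 tumors. The proximal side averaged -0.027 in tumor 1, -0.044 in tumor 2, -0.32 in tumor 3, -0.019 in tumor 4, -0.045 in tumor 5, -0.027 in tumor 6, -0.14 in tumor 7 and -0.027 in tumor 8. The distal side averaged 0.020, 0.031, -0.28, 0.026, 0.018, 0.033, -0.056 and 0.025 in tumors 1 to 8 in that order. The difference in the whole-loss tumor, -0.038, was the smallest of the 8, and that of tumor 7, -0.083, the largest.

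The mean difference of proximal minus distal was -0.058 ± 0.015 (SD, n = 8), with a two-sided exact permutation p of 0.00781, the smallest that 8 tumors allow, and an adjusted p of 0.0223. At an adjusted p under 0.05 the proximal side was lower on 20% and higher on 35% of the 20 chromosomes, so a difference between the sides was common. By its size, that of chromosome 7 ranked between 1 and 6 among the 19 autosomes in each tumor. It was -0.052 within slide 1 and -0.065 within slide 2, where 4 tumors cannot pass the threshold. With the pattern subtracted, which removes a difference shared by all tumors by construction, it was -0.0046 ± 0.024 (SD, n = 8), below 0 in 4 and above 0 in 4 tumors (exact permutation p = 0.625, adjusted p = 1). What remained was led by tumor 7, with -0.13 on the proximal and -0.078 on the distal side.

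**Figure D3:**
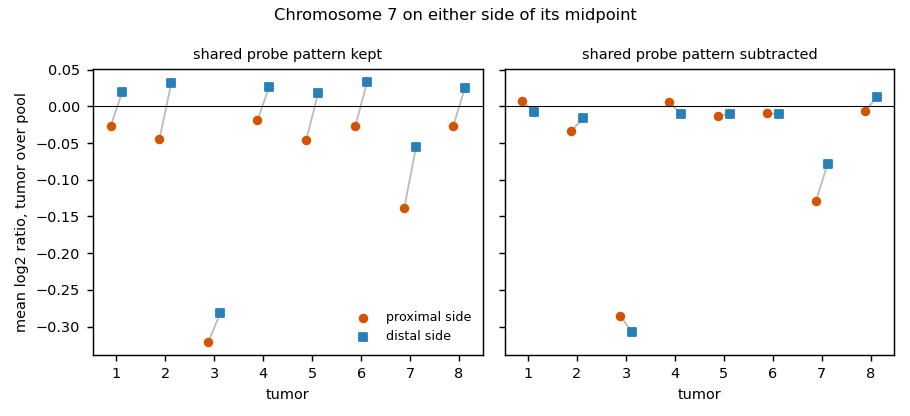
Mean log2 ratio of tumor over pool in the proximal (orange circles) and distal side (blue squares) of chromosome 7 in tumors 1 to 8, with the shared probe pattern kept (left) and subtracted (right); a line joins the sides of a tumor. On the left the proximal side is lower in all 8 tumors, on the right in 4 of 8.

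In 1 Mb bins, limma (treat at a log2 size of 0.1, Benjamini-Hochberg adjustment over 2537 bins of autosomes and X) called 1 of the 137 bins of chromosome 7 lower and 0 higher. Over all bins 0.0394% were called lower and 0.0394% higher, which makes the bin on chromosome 7 the 1 lower bin of the genome. At an unadjusted p under 0.05 limma gave 12 of the 137 bins lower and 0 higher, where 7.84% of all bins were lower and 4.26% higher. The called bin, 7:46000001-47000000, holds 17 probes, the first ones after the longest probe-free distance. Its log2 ratio was -0.68, -0.58, -0.76, -0.60, -0.59, -0.49, -0.49 and -0.45 in tumors 1 to 8, so it was far below 0 in each.

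That bin averaged -0.58 ± 0.10 (SD, n = 8, limma adjusted p = 0.000222). Its distal neighbour, the bin that begins at 7:47000001, lay between -0.054 in tumor 3 and 0.21 in tumor 4 and did not share the low level. The next bin in order, 7:7000001-8000000 with 16 probes, averaged -0.26 ± 0.093 (SD, n = 8) and missed the threshold (limma adjusted p = 0.0974). It borders another probe-free distance. The called bin was low in all tumors, and what most tumors share is removed with the pattern. The subtraction left this bin between -0.17 in tumor 7 and 0.11 in tumor 6. With the pattern subtracted limma called 0 bins on chromosome 7 (0 at an unadjusted p under 0.05), which follows in part from that removal. Bins of 2 Mb, normexp background correction and restriction to spots well above background also called 0. With slide as a block 4 bins of chromosome 7 were lower, among 42 of 2537 over all chromosomes. The array median as 0 left 1 lower and gave 4 higher, among 252 over all chromosomes, and the peak of single probes as 0 gave 0 lower and 119 higher, among 2049. A difference between FAH-/- and FAH+/+ animals and a property of the probes or dyes cannot be told apart here, as no dye was swapped.

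Focal segments were those under 3 Mb, called with at least 5 probes, and at least 0.3 away from the median of the probes in the 5 Mb on either side. With the pattern subtracted there were 17 focal losses and 8 focal gains on chromosome 7. The losses numbered 3 in tumor 1, 1 each in tumors 2 and 3, 2 in tumor 4, 0 in tumors 5 and 6, and 5 each in tumors 7 and 8. Focal losses were found in 50.6% of all pairs of a chromosome and a tumor and focal gains in 44.4%. Per 100 Mb and tumor, chromosome 7 had 1.42 focal losses, against 1.03 over all chromosomes, and 0.671 focal gains, against 0.785. Without tumor 7 the focal gains numbered 4. Most were short: 15 of the 17 losses and 7 of the 8 gains had fewer than 10 probes. The losses were spread over both sides, 9 proximal and 8 distal, and 3 of them overlapped a focal segment of another tumor.

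The focal loss with the most probes lay in tumor 1 at 7:109130460-109430129, on the distal side. It spanned 300 kb and 33 probes, with a mean log2 ratio of -0.67 ± 0.034 (SE over probes) and flanks at -0.044. With the pattern subtracted, all 33 probes were at -0.2 or below, from -0.998 to -0.29. The 163 probes within 1 Mb of the centre of the loss and outside it averaged -0.025 in tumor 1. The same 33 probes averaged -0.26 in tumor 3, whose probes around them averaged -0.34, and 0.054, 0.029, 0.014, 0.058, 0.0012 and 0.082 in tumors 2, 4, 5, 6, 7 and 8. The loss was therefore seen in tumor 1 alone.

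It was called with the pattern kept as well, over 31 probes (7:109130460-109410966) with a mean of -0.66 ± 0.14 (SE over probes). Single probes were less uniform on that scale. Of the 33 probes, 22 were at -0.2 or below, with a range from -1.70 to 0.97. Of the 163 probes around them, 75 were at -0.2 or below. The level of the loss resembled that of the chromosomes tumor 1 lost as a whole, which averaged -0.69 for chromosome 12, -0.67 for chromosome 4 and -0.66 for chromosome 13. On the rest of chromosome 7 the bins of tumor 1 lay between -0.12 and 0.12, the bin that holds this loss being the single one at -0.2 or below. In the other tumors without a whole change the bins of 1 Mb stayed within 0.2 of 0, save for tumor 7.

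**Figure D4:**
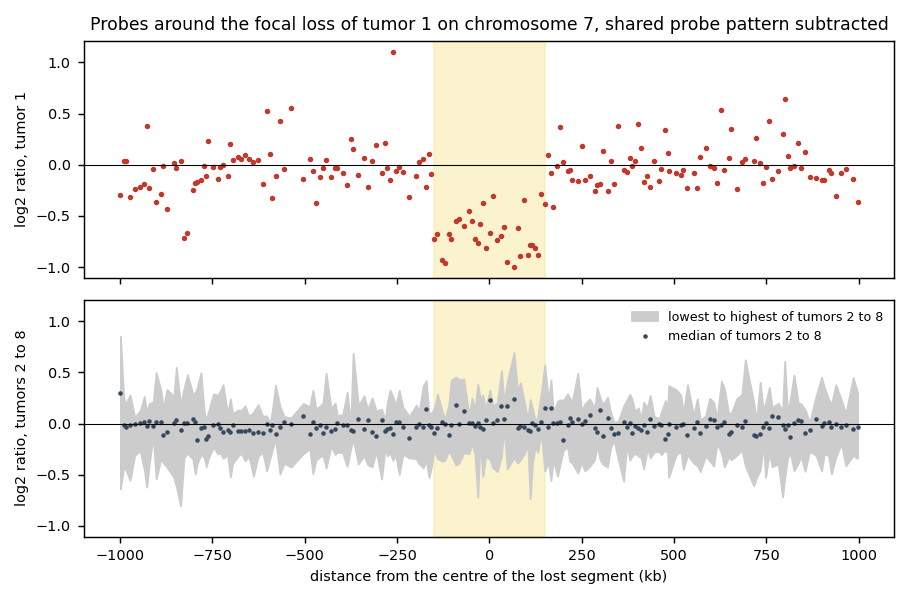
Log2 ratios of single probes, tumor over pool, within 1000 kb of the centre of the focal loss of tumor 1, with the shared probe pattern subtracted and the lost segment shaded. In tumor 1 (red, top) all 33 probes of the segment lie at -0.2 or below, the highest of them at -0.286. The median of tumors 2 to 8 (dots, bottom) stays near 0 inside a grey band from the lowest to the highest of them.

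A second group of focal segments lay between 25 and 27 Mb, on the proximal side. At 7:25146741-25269614 tumor 7 had a mean of -0.85 ± 0.16 (SE over 13 probes) with flanks at -0.17. Tumor 8 had -0.50 over the same probes and tumors 1 to 6 lay between -0.15 and 0.14, so both tumors 7 and 8 were low there. In tumor 3, 7:26187000-26243954 had a mean of -0.65 over 7 probes, below the level of its whole loss.

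Near 7:26790284 the tumors differed in sign. Tumor 4 had the lowest focal mean of chromosome 7 relative to its flanks at 7:26762877-26885230, -0.80 ± 0.30 (SE over 5 probes), and tumor 1 was at -0.39 at 7:26790284-26896274. Tumor 7 was gained at 7:26790284-26990743, with 0.63 ± 0.20 (SE over 9 probes), where tumor 2 had -0.33 and tumor 4 had -0.55. Tumors 5 and 8 were near 0 there, at 0.052 and 0.014. The levels formed no single direction, and they rest on few probes, with larger SEs than the loss of tumor 1 at 7:109130460.

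The remaining focal losses had means from -0.59, in tumor 7 at 7:71096041-71205080, to -0.27, in tumor 8 at 7:114640711-114711556, over 5 to 9 probes each. Among the gains, the one with the most probes lay in tumor 7 at 7:14786672-15117234, with a mean of 0.23 ± 0.047 (SE over 24 probes) and flanks at -0.091. Near 7:108453259 the direction again depended on the tumor, as 7:108453259-108489021 was lost in tumor 1 (-0.40 over 5 probes) and 7:108453259-108498978 gained in tumor 6 (0.36 over 6 probes). These and the segments near 7:26790284 were the focal segments that overlapped between tumors.

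**Figure D5:**
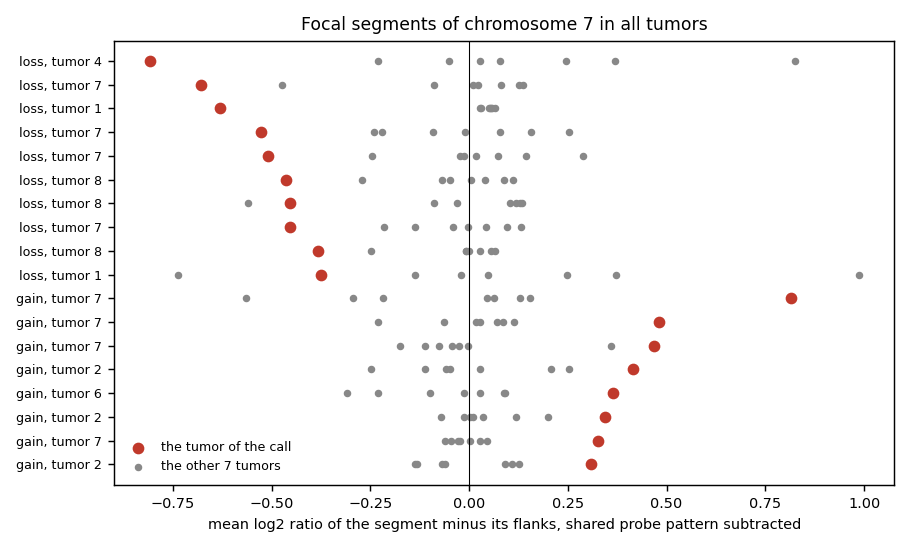
Mean log2 ratio minus the flanks for the 10 focal losses and 8 focal gains of chromosome 7 farthest from their flanks, in the tumor of the call (red) and the other 7 tumors over the same probes (grey), with the shared probe pattern subtracted. The loss of tumor 1 at -0.63 stands apart from the other 7 tumors, which lie between 0.027 and 0.066, whereas several other segments have another tumor at a similar level.

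With the pattern kept, the picture of focal segments turned round, to 4 losses and 23 gains. The losses lay in 4 of 8 tumors and the gains in all 8, where 20% of all pairs had a focal loss and 50% a focal gain. Per 100 Mb and tumor, chromosome 7 then had 0.335 focal losses, against 0.219 over all chromosomes, and 1.93 focal gains, against 0.798, without a test of the difference. Tumor 7 held 9 of the 23 gains. The gains recurred at the same probes: 7:120024523-120259344 was gained in tumors 2 to 6, with means from 0.61 in tumor 3 to 0.99 in tumor 2. In tumor 1 that gain ran on to 7:120313926, with a mean of 1.06. A segment that begins at 7:116708479 was gained in tumors 4, 5, 6 and 7 (0.26 to 0.57). Short segments shared by most arrays are what the subtraction removes. Of the focal losses called with the pattern subtracted, only that of tumor 1 at 109 Mb was also called as focal with it kept.

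The 184 probes around Fah, left out of all values above, were compared with the rest of the chromosome in each tumor. With the pattern kept, their mean minus that of chromosome 7 was 0.047 in tumor 7, -0.0045 in tumor 8 and between -0.070 and -0.043 in tumors 1 to 6, so it was lower in 7 of 8 tumors. With the pattern subtracted, which removes what most tumors share, the difference was 0.075 in tumor 7, 0.025 in tumor 8 and between -0.018 and 0.0085 in tumors 1 to 6. In tumor 3 the stretch was at -0.31, so it lay within the whole loss. These probes span far more than the gene and do not test the targeted allele.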

How the data were processed

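Genomic DNA of 8 tumors (Cy5) and of the common pool (Cy3) was compared on 2-colour arrays, 1 array a tumor, without dye swap. Per the submitters' processing notes the images were read with Agilent Feature Extraction 10.7.3.1. Per the file headers, the authors' processed signals are intensities from which background was subtracted and whose dyes were normalized linearly, and the spot and background medians are unprocessed intensities. The deposited series table holds log10 ratios of tumor over pool, and no value departed by more than 0.00498 from the array's own. The ratios of processed signals used here departed more from the array's own. The largest difference in log10 of an array ran from 0.107 in tumor 5 to 0.592 in tumor 4. With the deposited ratios in their place, limma also called 1 lower and 0 higher bins on chromosome 7. Spot marks (other: yes or no) and mm9 positions are as deposited.

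Log2 ratios of the processed signals were taken, spots with an outlier mark left out (6 to 17 of 10081 on chromosome 7), spots of a probe averaged, and arrays centred on the peak of a kernel density (bandwidth 0.05) of autosomal 1 Mb bin means with at least 5 probes. For the shared pattern, chromosome medians were subtracted from each array, the median of the 8 arrays was taken at each probe, and the result was scaled to each array. Segments came from recursive circular binary segmentation (1% false splits per chromosome on simulated noise, values limited to 4 noise SD, neighbours merged below a z of 4), checked on simulated data, run with scipy 1.17.1, numba 0.67.0, pandas 2.3.3 and numpy 2.4.6 under Python 3.11.15, and are described without a test. A change is whole from 80% of the length. Chromosome values were tested by exact sign flips (256 patterns) with Benjamini-Hochberg adjustment over 20 chromosomes, bins with limma 3.58.1 in R 4.3.3. Plots used matplotlib 3.10.9.

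Regions are named by rule: called segments of at least 3 Mb (those of the whole loss as a range), steps, up to 10 focal segments per direction by distance from the flanks, and bins past limma's threshold. The other segments and the 7:7000001-8000000 bin were picked after their values were seen. The members, the gene lists and the rules were chosen with earlier results of these data known. Tumors are numbered in accession order, which pairs nothing. The number of arrays limits the precision, and the spread between control mice enters no error.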

Additional observations from a re-analysis of the deposited data

Results flagged for a closer look

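Of 29 measures of chromosome 7 in which the tumor farthest from the others was compared with the range of all 8, 8 had a tumor that stood apart, and chance alone gives this in about 1 in 20. In 5 of them it was tumor 3: the chromosome mean of -0.298 with the pattern kept and -0.299 with it subtracted, the difference from the other autosomes of -0.293 and -0.298 on those scales, and the lost length of 99.6%. These 5 describe the same loss and are not independent. Tumor 7 stood apart in the gained length, 0.760%, and in the gain that begins at 7:14786672, which lay 0.326 above its flanks. Tumor 1 stood apart in the loss that begins at 7:109130460, at -0.631 relative to its flanks. These segments were selected for being far from their flanks in those tumors, so that they stand apart is in part a matter of that choice.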

How the results depend on the processing

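The mean level of chromosome 7 (-0.047) turned positive with other centring, at 0.085 on the array median (adjusted p = 0.170) and 0.33 on the peak of single probes (adjusted p = 0.0112), and passed the threshold as the median of probes (-0.15, adjusted p = 0.0156). Other centring shifts all chromosomes of an array alike. The proximal minus distal difference (-0.058) missed the threshold with the pattern subtracted (-0.0046), with the pattern of the other 7 arrays (-0.0050), within slide 1 (-0.052) and slide 2 (-0.065), and without tumors 7 and 8, whose title numbers are of another series (-0.055, adjusted p = 0.0694), the last 3 with fewer samples. Higher bins (0 of 137) became 4 on the array median and 119 on the peak of single probes, with 252 and 2049 of 2537 over all chromosomes. Lower bins (1) became 4 with slide as a block (42 over all chromosomes, block correlation -0.081) and 0 on the peak of single probes, with either pattern subtracted, with normexp, on spots well above background or in 2 Mb bins. The whole loss was not called at a threshold of 0.3, where partial losses (3) became 6 as the segments of tumor 3 counted among them; they were 9 at 0.1, 5 with the pattern kept and 0 with normexp. Steps (1) were 4 with the pattern kept and 0 with the pattern of the other arrays or normexp. Focal losses (17) were 4 with the pattern kept and 11 with normexp, and focal gains (8) were 23 and 4. Where construction does not show it, the cause was not tested.

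Leaving out each tumor in turn gave -0.055 to -0.011 for the mean, -0.054 to -0.0080 for the difference from other autosomes, -0.061 to -0.054 for proximal minus distal, 0 higher and 1 lower bins, 0 to 1 whole losses, 0 whole gains, 0 to 3 partial losses, 0 partial gains, 0 to 2 steps, 13 to 20 focal losses and 4 to 10 focal gains. Without tumor 3 no whole loss was left, without tumor 7 there were 0 partial losses and 4 focal gains, and the single step became 0 or 2 with each tumor left out. No paired analysis was possible because the tumors form 1 group, set against 1 pool. Among the values of single tumors and segments, 58 moved by more than their spread and 134 did not. A change of sign was counted only for the focal segments and for the difference of chromosome 7 from other autosomes in tumor 3, with 0 found. It was not counted for the other values of single tumors. Of these, the proximal minus distal difference turned from below to above 0 in 4 of 8 tumors with the pattern subtracted. Few probes and the noise of the kept pattern limit what focal calls can show.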
